A study of Mus musculus with 14 samples.

Results

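The genes described here are the ligands and receptors of the interleukin-1 (IL-1) family: Il1a, Il1b, Il33 and Il18 (ligands), Il1rn (a receptor antagonist), Il1r1, Il1rap, Il1rl1 and Il18r1 (receptor chains) and Il1r2 (a decoy receptor). These 10 genes were chosen by name, out of 20610 gene symbols on the array. A total of 14 probes carried their names, since Il1rap and Il18r1 had 2 probes each and Il1rl1 had 3. Expression was measured in ventricular tissue of male C57BL/6 mice aged 8 weeks, on 1-colour Agilent mouse SurePrint arrays with 1 sample per array. Myocardial infarction (MI) was made by ligating the left anterior descending coronary artery, and sham mice had the surgery without the ligation. Ventricular border zone was collected 3 days (5 arrays) or 14 days (5 arrays) after ligation, and 4 sham arrays were analysed here. The time at which sham hearts were taken is not given, so 1 sham group served both time points, and the changes at 3 and 14 days share their control arrays. The design text gives 10 ligated and 5 sham mice, while no label ties an array to a mouse. If arrays of a group shared a mouse, the p-values measure only the spread between these samples, which may be technical. The tissue holds many cell types at once, so more cells of a type and more RNA per cell cannot be told apart in any change given below.

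IL-1 family ligands are released by damaged or activated cells and start inflammation. IL-1α and IL-1β bind IL1R1, which recruits the accessory chain IL1RAP and signals through MYD88 and IRAK kinases to NF-κB. IL1RN binds the same receptor without signalling, and IL1R2 captures IL-1 without signalling. IL-33 is a nuclear protein of stromal cells that is released on damage and binds IL1RL1, also called ST2, whose soluble form is a blood marker of heart failure. IL-1β and IL-18 are made as precursors that caspase-1 cleaves inside inflammasomes, so their mRNA does not report the active protein.

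Promoter sequences are shown for 4 members whose transcripts rose after infarction: 2 ligands that rose at both times, the signalling receptor, and the decoy receptor, which had a large rise at 3 days. The windows are the 250 bases before the transcription start, from RefSeq on GRCm38.p6, written 5′ to 3′ on the gene's strand. Capitals mark letters that match a motif searched: TATAAA on the gene's strand, and on both strands CACGTG (an E-box), TGANTCA (the AP-1 motif), TTNNGNAA (a short form of the C/EBP motif) and the NF-κB consensus. The window of Il1b is chr2:129371140-129371389, minus strand, that of Il33 chr19:29945540-29945789, plus strand (the second of 2 starts), that of Il1r1 chr1:40266336-40266585, plus strand (the second of 2 starts) and that of Il1r2 chr1:40085843-40086092, plus strand.
Il1b: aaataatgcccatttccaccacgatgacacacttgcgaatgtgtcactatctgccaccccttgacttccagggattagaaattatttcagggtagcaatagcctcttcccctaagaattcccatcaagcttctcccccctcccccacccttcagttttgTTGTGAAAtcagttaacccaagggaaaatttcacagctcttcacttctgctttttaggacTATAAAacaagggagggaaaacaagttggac
Il33: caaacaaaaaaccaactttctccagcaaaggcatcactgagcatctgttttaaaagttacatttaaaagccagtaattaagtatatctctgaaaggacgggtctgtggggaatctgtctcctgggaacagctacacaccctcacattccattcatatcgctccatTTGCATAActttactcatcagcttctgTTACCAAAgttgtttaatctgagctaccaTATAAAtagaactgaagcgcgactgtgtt
Il1r1: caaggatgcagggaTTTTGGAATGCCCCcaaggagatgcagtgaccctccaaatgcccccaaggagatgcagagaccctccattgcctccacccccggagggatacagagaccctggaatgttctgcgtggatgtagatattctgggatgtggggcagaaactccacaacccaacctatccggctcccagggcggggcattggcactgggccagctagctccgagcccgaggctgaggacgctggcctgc
Il1r2: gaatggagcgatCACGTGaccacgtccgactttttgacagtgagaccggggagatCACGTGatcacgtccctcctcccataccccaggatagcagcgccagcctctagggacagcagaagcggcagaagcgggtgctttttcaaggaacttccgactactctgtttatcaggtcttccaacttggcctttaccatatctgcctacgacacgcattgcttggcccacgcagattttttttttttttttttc

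Il1b had TATAAA at bases -31 to -26 before its start and a C/EBP match, TTGTGAAA, at -91 to -84. Il33 had TATAAA at -29 to -24 and C/EBP matches at -85 to -78 and -58 to -51. The Il1r1 window held the NF-κB consensus at -232 to -223, where it overlaps a C/EBP match at -236 to -229, while the window of the other Il1r1 start held no NF-κB match. Il1r2 had CACGTG at -238 to -233 and again at -195 to -190. Over 32851 windows of the same length, 7.59% held TATAAA, 36.8% the C/EBP letters, 3.9% the NF-κB consensus, 6.75% the AP-1 letters and 6.02% CACGTG. Among the 17 windows of the 10 members, 4 held TATAAA, 10 the C/EBP letters, 1 the NF-κB consensus, 2 the AP-1 letters and 1 CACGTG. A match of letters is a description and not a binding site. By gene order, Il1r2 and Il1r1 are neighbours on chromosome 1, where Il1rl1 and Il18r1 are also adjacent, and Il1a and Il1b are neighbours on chromosome 2.

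Levels are the log2 intensity of a probe minus the 75th percentile of its array, so 0 is the intensity that 75% of the probes stay below, and a level compares 1 probe between arrays and not 1 gene with another. That percentile was between 188.6 and 443 intensity units, 55.8% to 66.9% of spots were well above background on the 10 arrays with scanner output, and no spot was saturated. Scanner output covered all 4 sham arrays, replicates 4 and 5 at 3 days, and every array at 14 days except replicate 2. MI 14 days replicate 3 stood apart from its group on the second principal component (score -76.2, against -41.5 to -23 for the other arrays at 14 days). Without it, as many members were called in each comparison as with it (8, 5 and 8). The 10 cardiomyocyte markers were well above background in every group. Testing required a group in which all scanner arrays showed the probe well above background, and 9 of the 10 genes passed through 1 probe each. Il1a did not pass and has levels only. A gene that passed through the group where it is high had to differ to some degree. The counts of members, pathway genes and markers below are therefore descriptions.

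Changes are log2 differences ± SE from limma, fitted over 32257 probes with two-sided p-values adjusted by Benjamini-Hochberg, and were called at an adjusted p under 0.05 (n = 4 sham, 5 at 3 days, 5 at 14 days). At 3 days 8 of 9 tested members were called, 7 higher and 1 lower, where 70.2% of 14863 named genes were called (29.8% higher and 40.4% lower). At 14 days against sham 5 of 9 were called, all higher, where 40.1% of named genes were called (15.9% higher and 24.2% lower). Between the times 8 of 9 were called, 7 lower and 1 higher at 14 days, where 60.5% of named genes were called (33.6% higher and 26.9% lower). The median change of the members was 1.85 at 3 days, 0.72 at 14 days and -1.10 for the later against the earlier time. Over all named genes it was -0.15, -0.08 and 0.08.

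**Figure D1:**
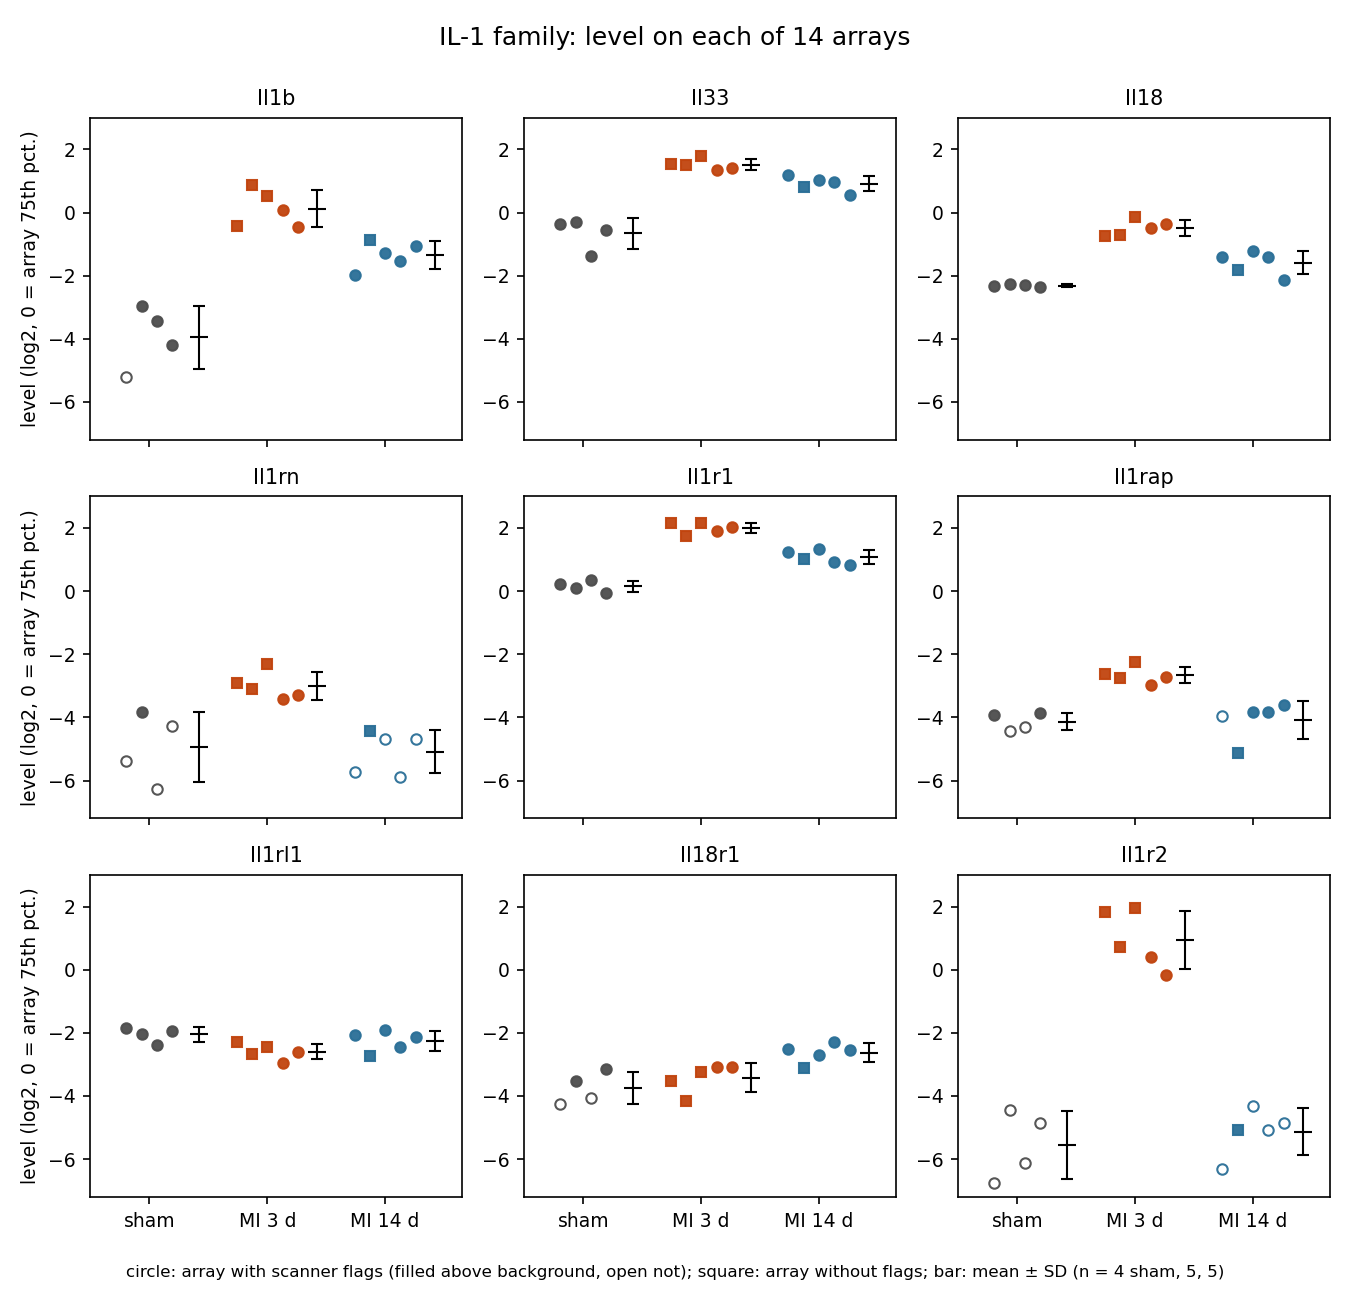
Level of each tested IL-1 family member (log2 intensity minus the array's 75th percentile, y axis) on each of 14 arrays by group (x axis), with open circles for arrays on which the probe was not well above background, squares for arrays without scanner flags, and bars for the mean ± SD. All 5 arrays at 3 days lie above all 4 sham arrays for Il1b, Il33, Il18, Il1rn, Il1r1, Il1rap and Il1r2. Among all named genes called at 3 days against sham, 88.4% had groups without overlap. Il1r2 lay between -6.31 and -4.31 at 14 days.

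Among the ligands, Il1b, which encodes IL-1β, had the largest change. Its sham levels were -5.22, -2.97, -3.43 and -4.20. They were -0.44, 0.87, 0.53, 0.07 and -0.45 at 3 days, and -1.96, -0.87, -1.30, -1.55 and -1.05 at 14 days. The 3 groups did not overlap, with sham lowest and 3 days highest. Il1b rose 16.8-fold at 3 days (4.07 ± 0.41, adjusted p = 1.17e-06) and was 6.1-fold above sham at 14 days (2.61 ± 0.41, adjusted p = 0.00049). The probe was well above background on 3 of 4 sham arrays, so the sizes of these rises are uncertain. On the 10 scanner arrays with the background corrected by limma's normexp method they were 1.76 and 0.91 (adjusted p = 2.52e-06 and 0.000963). The level of Il1b at 14 days was 2.76-fold below that at 3 days (-1.46 ± 0.39, adjusted p = 0.0056). That call was lost on the 10 scanner arrays alone (-1.26, adjusted p = 0.0843) and with the slide as a block (-0.93, adjusted p = 0.272).

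The Il1b probe was printed in 10 spots on each array, which gives the spread within an array. In sham replicate 1, 1 of the 10 spots was well above background, with spot intensities from 3.23 to 14.3. In MI 3 days replicate 4 all 10 spots were, with intensities from 232.3 to 262. The SD of log2 intensity over the 10 spots was 0.64 on that sham array and 0.06 on that array at 3 days. The former was the largest such SD on the 10 scanner arrays.

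Il33, the nuclear alarmin, was above background on every scanner array. Sham levels were -0.36, -0.31, -1.37 and -0.56, those at 3 days were 1.54, 1.50, 1.78, 1.35 and 1.42, and those at 14 days were 1.18, 0.82, 1.02, 0.97 and 0.57. Sham replicate 3 was the lowest array, and the groups did not overlap. Il33 rose 4.5-fold at 3 days (2.17 ± 0.19, adjusted p = 3.8e-07) and 2.96-fold at 14 days (1.56 ± 0.19, adjusted p = 9.23e-05). The decrease between the times was 1.52-fold (-0.60 ± 0.18, adjusted p = 0.0121). On the 10 scanner arrays alone it was -0.45 (adjusted p = 0.229), and with the background corrected by limma's normexp method -0.46 (adjusted p = 0.091).

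Il18, the ligand of the receptor chain IL18R1, had sham levels within a narrow range, from -2.37 to -2.27 on 4 arrays. At 3 days it was -0.74, -0.71, -0.15, -0.48 and -0.36, and at 14 days -1.41, -1.81, -1.21, -1.41 and -2.13. Every array after infarction lay above every sham array, with those at 14 days between the other groups. The rise was 3.54-fold at 3 days (1.83 ± 0.17, adjusted p = 5.95e-07) and 1.65-fold at 14 days (0.72 ± 0.17, adjusted p = 0.0059). Between the times Il18 fell 2.15-fold (-1.10 ± 0.16, adjusted p = 6.39e-05). The call at 14 days was lost with no scaling between arrays (0.64, adjusted p = 0.242) and with normexp (0.315, adjusted p = 0.0533).

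Il1a, which encodes IL-1α, was not well above background on any sham array or on either scanner array at 3 days. Its levels were -6.79 to -6.30 in sham and -6.83 to -6.19 at 3 days. At 14 days 4 arrays were between -6.45 and -5.91, and replicate 5, at -3.79, was the only scanner array on which it was well above background. No change of Il1a was detectable at these intensities, which reached 13.6 units on that array and 5.73 on the others.

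Il1rn, which encodes the IL-1 receptor antagonist, was higher at 3 days and not at 14 days. Sham levels were -5.37, -3.84, -6.27 and -4.26, with only replicate 2 well above background. They were -2.90, -3.10, -2.31, -3.42 and -3.29 at 3 days, and -5.72, -4.45, -4.68, -5.89 and -4.67 at 14 days, where no scanner array was above background. The fitted change at 3 days was 1.93 ± 0.46 (adjusted p = 0.00201), against a sham group in which 1 of 4 arrays was above background, so its size is uncertain. Its level at 14 days was at least 2.2-fold below that at 3 days (adjusted p = 0.00101), with the group mean of 3 days set against the lowest signal of probes above background on the 14-day scanner arrays, or the probe's own where higher. At 14 days the change from sham was -0.15 (95% interval -1.13 to 0.83, adjusted p = 0.832), with overlapping arrays. On the 10 scanner arrays alone the rise at 3 days was 1.58 with an adjusted p of 0.0546. With normexp neither the rise (0.17, adjusted p = 0.39) nor the fall between the times (-0.14, adjusted p = 0.507) was called.

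Il1r1, the signalling receptor of IL-1, was bright on every array and had the smallest SE of the members. Its sham levels were 0.23, 0.10, 0.34 and -0.07. They were 2.16, 1.76, 2.15, 1.90 and 2.03 at 3 days, and 1.25, 1.02, 1.34, 0.91 and 0.84 at 14 days. The arrays fell into 3 ranges without overlap, sham lowest and 3 days highest. Il1r1 rose 3.6-fold at 3 days (1.85 ± 0.13, adjusted p = 4.14e-08) and 1.89-fold at 14 days (0.92 ± 0.13, adjusted p = 0.000203). It fell 1.9-fold between the times (-0.93 ± 0.12, adjusted p = 2.32e-05). With no scaling the change at 14 days was 0.84 (adjusted p = 0.0919).

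Il1rap, the accessory chain shared by the receptors of IL-1 and IL-33, was dim in sham and at 14 days. Its brighter probe had sham levels of -3.92, -4.42, -4.32 and -3.88, and levels of -2.63, -2.77, -2.25, -2.96 and -2.71 at 3 days. At 14 days they were -3.97, -5.13, -3.83, -3.84 and -3.60. All arrays at 3 days lay above all other arrays. The rise at 3 days was 2.77-fold (1.47 ± 0.26, adjusted p = 0.000213), and the fall between the times was 2.66-fold (-1.41 ± 0.25, adjusted p = 0.000274). This probe was well above background on 2 of 4 sham arrays and 3 of 4 scanner arrays at 14 days, so both sizes are uncertain. Neither change was called with normexp (0.31, adjusted p = 0.0678, and -0.19, adjusted p = 0.277). At 14 days the change from sham was 0.06 (95% interval -0.50 to 0.62, adjusted p = 0.889). The second Il1rap probe was not tested and was well above background only on MI 3 days replicate 5 among the scanner arrays. The array assigns the brighter probe to NM_134103 and the second to NM_008364. Which form of the Il1rap protein each measures was not tested.

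Il1r2, the decoy receptor, had the largest change of the members. Its levels were -6.74, -4.45, -6.13 and -4.84 in sham, with no array above background. At 3 days they were 1.82, 0.72, 1.96, 0.41 and -0.17. They were -6.31, -5.07, -4.31, -5.09 and -4.85 at 14 days, again with no scanner array above background. Intensities were 313.9 to 1560 at 3 days and at most 11.8 on every other array. By the group mean of 3 days, Il1r2 was at least 39.4-fold above sham (adjusted p = 2.29e-07). By that mean it was at least 34-fold lower at 14 days (adjusted p = 5.64e-07). The mean covers all 5 arrays at 3 days, of which the 2 with scanner output were lowest (0.41 and -0.17). With normexp on the 10 scanner arrays the changes were 2.18 and -2.16 (adjusted p = 1.68e-07 and 4.15e-07). The sizes are thus uncertain. Sham and 14 days overlapped, and both were below background, so no fold between them is given.

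Il1rl1, the IL-33 receptor ST2, was the only member called lower at 3 days. The tested probe, which the array assigns to NM_001025602, had sham levels of -1.84, -2.03, -2.37 and -1.94. They were -2.29, -2.68, -2.44, -2.95 and -2.62 at 3 days and -2.06, -2.73, -1.92, -2.46 and -2.15 at 14 days. The 3 ranges overlapped. The decrease at 3 days was 1.46-fold (-0.55 ± 0.18, adjusted p = 0.0136). It was not called when arrays were centred on their median (-0.37, adjusted p = 0.0578) or not scaled (-0.14, adjusted p = 0.767). Il33 rose with each of these scalings.

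At 14 days Il1rl1 was -0.22 from sham (95% interval -0.59 to 0.16, adjusted p = 0.375). Between the times it was 0.33 (95% interval -0.02 to 0.69, adjusted p = 0.102), and without MI 14 days replicate 2 it was 0.45 with an adjusted p of 0.0253. The other 2 Il1rl1 probes were dim. That of NM_010743 was well above background only on MI 14 days replicate 3 (level -2.63), while the other arrays lay between -6.71 and -5.36. Which protein form each probe measures was not tested.

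Il18r1, the ligand-binding chain of the IL-18 receptor, was called at 14 days and not at 3 days. Its brighter probe had sham levels of -4.25, -3.52, -4.06 and -3.15. They were -3.52, -4.15, -3.25, -3.08 and -3.08 at 3 days and -2.52, -3.12, -2.69, -2.29 and -2.54 at 14 days. Every array at 14 days lay above every sham array, and the lowest array at 14 days overlapped the range at 3 days. Il18r1 was called higher than sham at 14 days, with a fitted change of 1.11 ± 0.26 (2.16-fold, adjusted p = 0.00522). The probe was well above background on 2 of 4 sham arrays, so the size of this change is uncertain. With no scaling that call was lost (1.03, adjusted p = 0.0574), and with normexp the change was 0.39 (adjusted p = 0.0251). At 3 days the change was 0.33 (95% interval -0.23 to 0.89, adjusted p = 0.279). The difference between the times was 0.79 ± 0.24 (adjusted p = 0.0143), where Il18 fell. That difference was not called on the 10 scanner arrays alone (0.57, adjusted p = 0.118), with the slide as a block (0.46, adjusted p = 0.277), with no scaling (0.30, adjusted p = 0.485) or with normexp (0.28, adjusted p = 0.142). The second Il18r1 probe was below background on every scanner array.

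**Figure D2:**
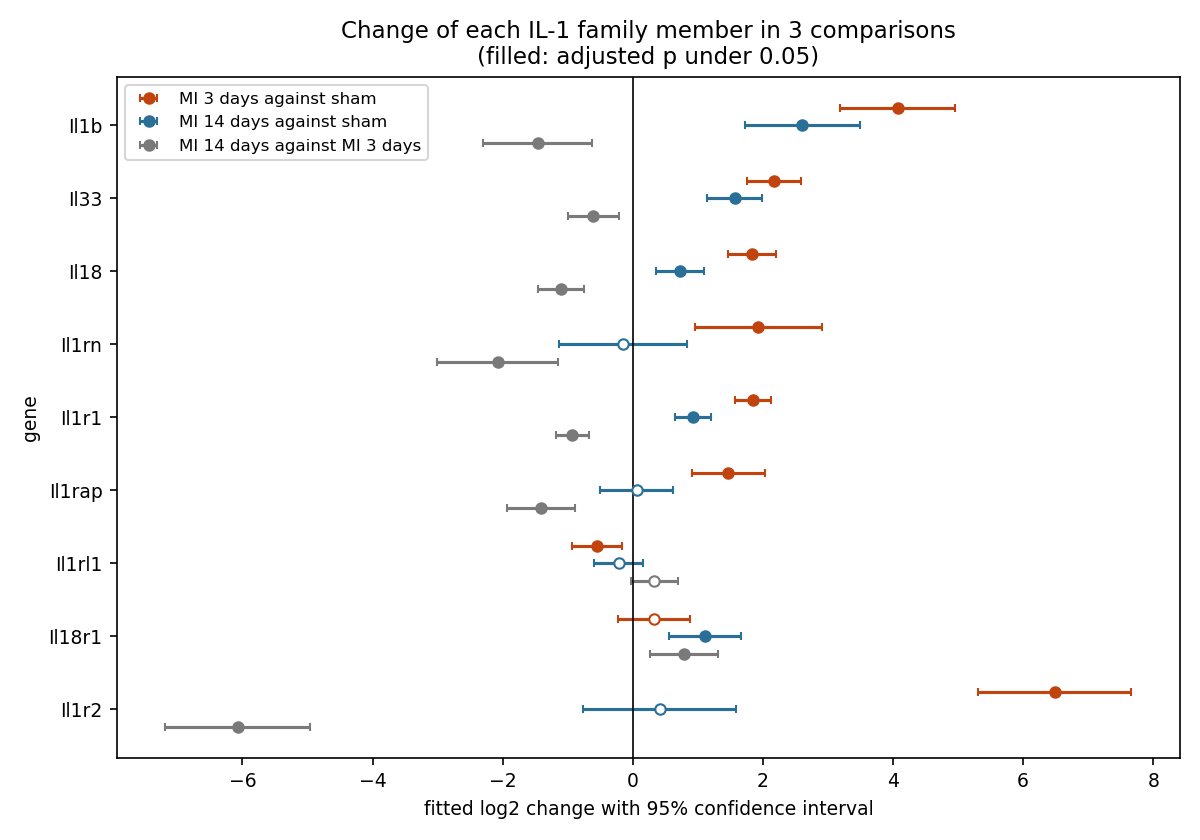
Fitted log2 change (x axis) with its 95% confidence interval for each tested member (y axis) in the 3 comparisons, filled where the adjusted p was under 0.05. Il1r2, Il1rn and Il1rap were called at 3 days and not at 14 days, Il18r1 was called at 14 days and not at 3 days, and the Il1r2 values are fitted against groups below background.

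By order of the group means, sham was lowest, 14 days between and 3 days highest for Il1b, Il33, Il18 and Il1r1, with neighbouring groups apart by the test. For Il1rn, Il1rap and Il1r2 only 3 days stood apart, and sham and 14 days did not differ beyond their spread. Arrays of the groups compared did not overlap for 7 of the 8 called members at 3 days, 5 of 5 at 14 days and 7 of 8 when the times were compared. Among all named genes that were called, 88.4%, 81.1% and 75.2% had groups without overlap.

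The scanner arrays came from 3 slides, each with 2 or 3 of the groups. Within slides, all 16 differences of called members between 3 days and sham had the sign of the fitted change, as did 10 of 10 at 14 days and 8 of 8 for the later against the earlier time. These differences come from arrays of the same fit and count only members already called. Their signs were thus largely fixed in advance and are a description. For Il1r2 the differences within slides at 3 days were 6.53 and 4.67. Il1b gave 3.49 and 3.76 within slides at 3 days, and Il33 gave 2.72 and 1.98. With the slide as a block, 8 members were called at 3 days, 5 at 14 days and 6 when the times were compared. When the background was corrected with normexp at an offset of 50, the rise at 3 days was 1.76 for Il1b, 1.06 for Il18 and 2.18 for Il1r2, and the dim genes Il1rn and Il1rap were not called.

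**Figure D3:**
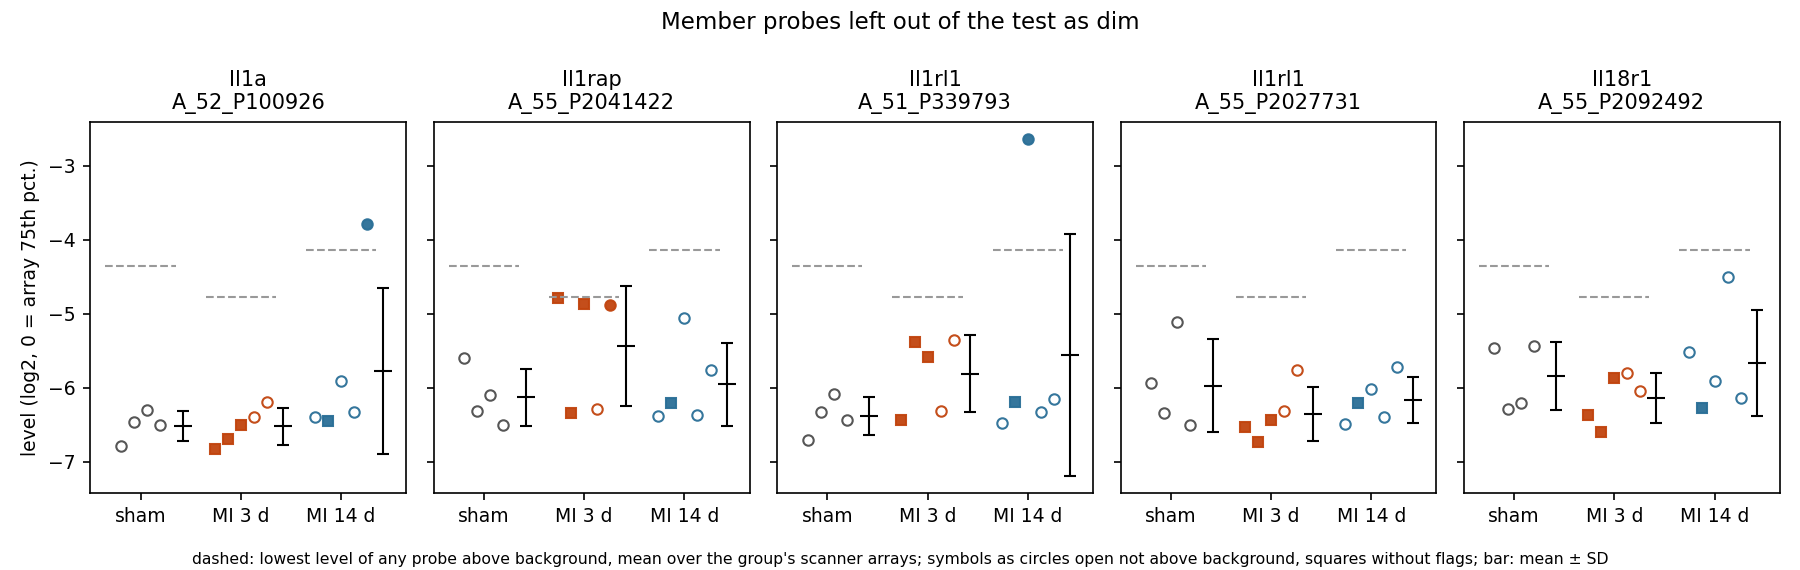
Level (log2 intensity minus the array's 75th percentile, y axis) of the 5 member probes left out of the test, by group (x axis), with dashed lines for the lowest level of any probe above background. Filled circles are the arrays on which a probe was well above background: Il1a on MI 14 days replicate 5 (-3.79), Il1rap on MI 3 days replicate 5 (-4.88) and Il1rl1 on MI 14 days replicate 3 (-2.63).

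The rest of the pathway was followed in 4 gene lists. Of 11 other members of the family, 10 had a probe by symbol and 2 were tested. Sigirr, an inhibitory receptor, was -0.20 ± 0.09 at 3 days (adjusted p = 0.0682). Il18bp, which encodes the binding protein that neutralises IL-18, was lower at 3 days (-0.31 ± 0.10, adjusted p = 0.013). With no scaling it was 0.10 and with median centring -0.13 (adjusted p = 0.393), and without sham replicate 3 it was -0.23 (adjusted p = 0.0508). Il18rap, the second chain of the IL-18 receptor, was among the genes not tested.

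Of 14 inflammasome and release genes, 10 rose and 4 fell at 3 days, where 29.8% of all named genes were higher and 40.4% lower. The median of the list was 1.18 (1.03 with genes below background set at their bound). At 14 days 6 rose and none fell (median 0.46), where 15.9% of all named genes were higher and 24.2% lower. Mefv, which encodes pyrin, rose by 4.78 ± 0.27 at 3 days (adjusted p = 8.01e-09) and Panx1, which encodes a membrane channel, by 2.70 ± 0.16 (adjusted p = 1.02e-08). Nlrp1b, above background on no sham array, was at least 3.24-fold higher (adjusted p = 0.000109). Casp1, the protease that cleaves the precursors of IL-1β and IL-18, rose by 1.40 ± 0.14 (adjusted p = 1.37e-06). Nlrp3, the sensor gene, went the other way (-0.76 ± 0.16, adjusted p = 0.000789), as did Nlrp1a (-0.79 ± 0.10, adjusted p = 1.15e-05). The mean of both Nlrp1a probes was -0.13 (adjusted p = 0.325), and whether its bright probe detects another gene was not tested. With no scaling Nlrp3 was -0.35 (adjusted p = 0.413). At 14 days Panx1 and Mefv had the largest rises (2.25 ± 0.16 and 2.03 ± 0.27, adjusted p = 1.75e-06 and 0.00015).

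Of 21 receptor signalling genes tested, 8 rose and 9 fell at 3 days (38.1% and 42.9%, median -0.05), and 3 rose and 7 fell at 14 days (14.3% and 33.3%, median -0.04). These shares were near those of all named genes (29.8% higher and 40.4% lower at 3 days, 15.9% and 24.2% at 14 days). Irak4 (1.26 ± 0.13, adjusted p = 1.7e-06) and the adaptor gene Myd88 (1.24 ± 0.09, adjusted p = 8.57e-08) had the largest rises at 3 days. Tab1 (-0.997 ± 0.11, adjusted p = 3.9e-06) and Irak1 (-0.84 ± 0.09, adjusted p = 1.56e-06) had the largest falls. With no scaling neither fall was called (adjusted p = 0.101 and 0.25). At 14 days Irak3, which encodes an inhibitor of the pathway (0.58 ± 0.13, adjusted p = 0.00429), and Irak4 (0.45 ± 0.13, adjusted p = 0.0179) were higher. Tab1 (-0.61 ± 0.11, adjusted p = 0.00138) and Tollip, another inhibitor (-0.44 ± 0.10, adjusted p = 0.00386), were lower. With the slide as a block Irak3 had an adjusted p of 0.0591 and Irak4 of 0.192, and Irak4 was also not called without sham replicate 2 (0.42, adjusted p = 0.0509) or 3 (0.42, adjusted p = 0.0505). With no scaling Tab1 and Tollip were not called at 14 days (adjusted p = 0.171 and 0.332).

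Among 29 target genes of IL-1 and NF-κB, 23 were tested. Of these, 18 rose and 2 fell at 3 days (median 1.95, or 1.91 with bounds). The risers Cxcl3, Sele and Mmp9 were above background on no scanner array of sham or 14 days. They were tested only through the group at 3 days, where they were high. At 14 days 9 of the 23 rose and 2 fell (median 0.29). Among all named genes 29.8% were higher and 40.4% lower at 3 days, and 15.9% and 24.2% at 14 days. Il6, an inflammatory cytokine, and Cxcl5, a neutrophil attractant, rose at 3 days, with fitted changes of 6.55 ± 0.60 (adjusted p = 5.02e-07) and 6.30 ± 0.42 (adjusted p = 3.2e-08). Il6 was above background on 1 of 4 sham arrays and Cxcl5 on 3 of 4, so the sizes of their changes are uncertain. At 14 days the fitted change of Il6 from sham was 3.48 ± 0.60 (adjusted p = 0.000902), and the acute-phase gene Saa3 was 2.74 ± 0.77 above it (adjusted p = 0.0146). Without sham replicate 1 or 3 Saa3 was 2.35 or 2.28 (both adjusted p = 0.0509), and with the replicate block it was 2.60 (adjusted p = 0.0504). Sod2, the mitochondrial superoxide dismutase, fell by 1.47 ± 0.14 at 3 days (adjusted p = 5.84e-07), and Ptges, a prostaglandin E synthase, by 0.77 ± 0.09 (adjusted p = 4.11e-06). Both are also bright in sham heart, at levels of 8.26 and 5.82. The Ptges fall was not called with no scaling (adjusted p = 0.328). At 14 days Sod2 was -0.55 ± 0.14 (adjusted p = 0.00836) and Ptges -0.57 ± 0.09 (adjusted p = 0.00046) from sham. With the slide as a block Sod2 had an adjusted p of 0.0635, and the mean of both Ptges probes was -0.03 (adjusted p = 0.74). Whether the bright Ptges probe detects another gene was not tested.

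**Figure D4:**
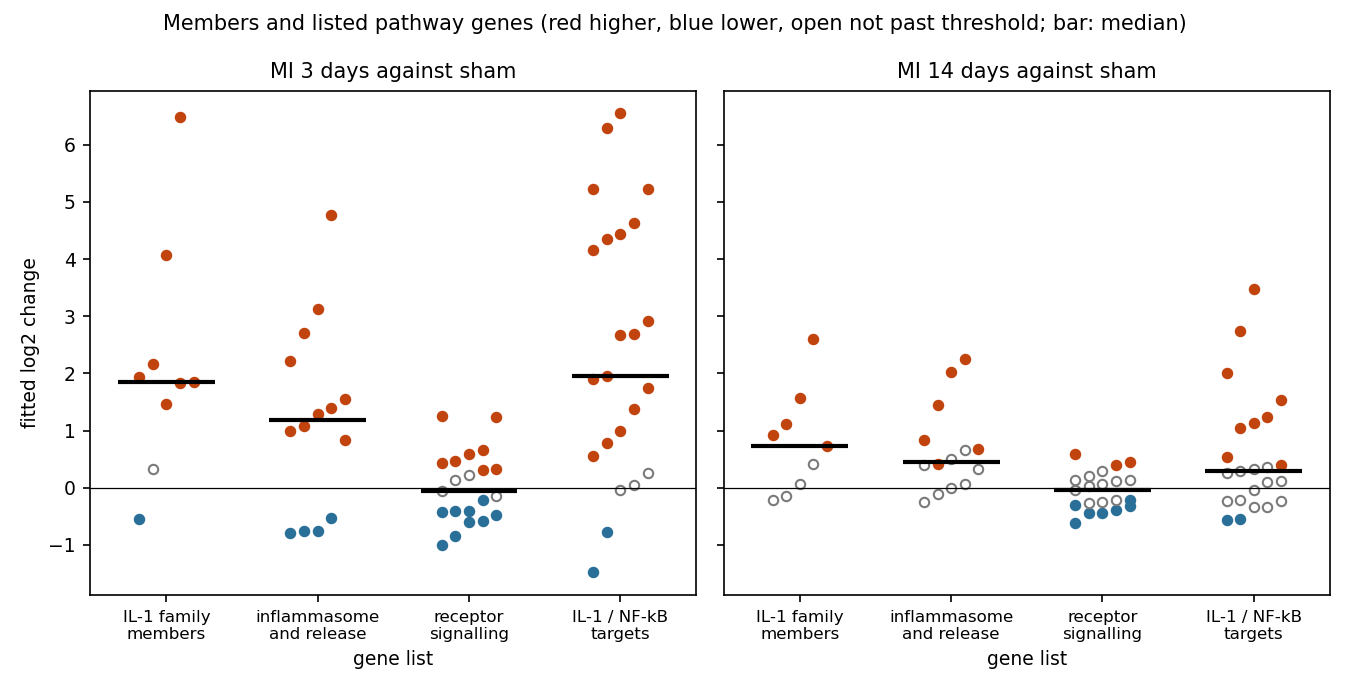
Fitted log2 change (y axis) of each tested gene of the IL-1 family and of 3 pathway lists (x axis) at 3 and 14 days against sham, red where higher, blue where lower and open where not past the threshold, with the median as a bar. At 3 days the medians are 1.85 for the members, 1.18 for inflammasome genes, -0.05 for receptor signalling and 1.95 for target genes.

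Markers of other cell types were measured on the same arrays. For the marker counts below, 29.8% of all named genes were higher and 40.4% lower at 3 days, and 15.9% and 24.2% at 14 days. Of 9 tested neutrophil markers 6 were higher and 1 lower at 3 days, and 1 was higher at 14 days. Csf3r was the lower one (-0.19, adjusted p = 0.0489), and Camp and Elane were not called. Their summed signal, in multiples of the array's 75th percentile, was 211 to 232 in sham, 195 to 276 at 3 days and 217 to 242 at 14 days. Most of it came from the Csf3r probe, without which the sums were 5.74 to 11.1, 23.8 to 82.4 and 5.51 to 12.3. Whether the bright Csf3r and Itgam probes detect another gene was not tested, so the sums that hold them may not report these cells. Mmp8, a neutrophil collagenase, was not above background on any scanner array of sham or 14 days and was at least 13.8-fold above sham at 3 days (adjusted p = 1.51e-09), and Ngp was not above background in any group. Sham and 14 days are also the groups in which Il1r2 was below background. In detection most tested neutrophil markers differed from this: S100a8, S100a9, Retnlg, Csf3r, Camp and Elane were above background on every scanner array. Cxcr2 and Mpo were above it on some scanner arrays of sham and 14 days. Between the times 6 of the 9 were lower at 14 days (S100a8, S100a9, Retnlg, Cxcr2, Mmp8 and Mpo). Csf3r and Camp were higher. Among all named genes 26.9% were lower and 33.6% higher between the times. The part of neutrophils in the Il1r2 values was not tested.

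Of 10 monocyte and macrophage markers 9 were higher and 1 lower at 3 days, and 4 were higher at 14 days. Their sums without the brightest probe, Itgam, were 42.2 to 54.9 in sham, 94.8 to 164 at 3 days and 53.5 to 78 at 14 days, and with it 177 to 231, 189 to 253 and 204 to 237. None of these 10 was below background throughout a group. The ranges without Itgam place 3 days highest, while those with it overlapped between all 3 groups. The part of these cells in the members' values was not tested.

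Of 8 fibroblast markers 5 were higher and 1 lower at 3 days and 8 of 8 were higher at 14 days (sums of 400.3 to 421 in sham, 717 to 1006 at 3 days and 1012 to 1455 at 14 days). Without Dcn, the brightest, the sums were 103 to 137, 517 to 782 and 500.1 to 861, so those at 3 and 14 days overlapped. All 10 cardiomyocyte markers were lower at 3 days and 4 of 10 at 14 days (sums of 6738.5 to 8473, 4035.5 to 4695 and 7036 to 9599). Of 6 tested T cell markers 1 was higher and 2 lower at 3 days and 1 higher at 14 days, and of 5 natural killer cell markers 1 was higher and 1 lower at 3 days and 1 higher at 14 days. Sums were 8.84 to 9.78, 6.59 to 8.9 and 7.78 to 9.28 for T cells and 4.4 to 5.11, 4.06 to 5.12 and 4.02 to 4.49 for natural killer cells, in sham and at the times after infarction. Without Nkg7, the brightest, the natural killer cell sums were 1.07 to 1.38, 1.53 to 1.78 and 0.858 to 1.64, higher at 3 days than in sham without overlap. Klrd1 was the marker called higher at 3 days (mean level -5.39 in sham and -1.58 at 3 days). Nkg7 was the lower one, and Gzma, Gzmb and Prf1 were not called. No scanner array was above background for Klrd1 and Eomes in sham, or for Ncr1 and Klrb1c in all groups. The same held for Cd3g in sham, Icos at 3 and 14 days and Ctla4 in all groups.

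Mast cells are known to carry ST2. Of 6 tested mast cell markers 2 were higher and 3 lower at 3 days and 1 was higher at 14 days. The shares at 3 days (33.3% and 50%) were near those of all named genes (29.8% and 40.4%). Their sums were 2.97 to 3.69 in sham, 3.05 to 7.22 at 3 days and 2.73 to 4.1 at 14 days. Without Hdc, the brightest, the sums were 2.24 to 2.97, 2.004 to 3.45 and 2.04 to 3.53. The proteases Mcpt4 (-2.06) and Cpa3 (-1.56) were lower at 3 days (adjusted p = 1.03e-06 and 0.00163), as was Cma1 (adjusted p = 0.00101), which was above background on neither scanner array at that time. Kit, a receptor kinase, was higher (1.47, adjusted p = 7.15e-06), as was Hdc, the histamine-forming enzyme (1.59, adjusted p = 0.000636), and Tpsb2 was -0.02 (adjusted p = 0.93). The markers thus moved in both directions at the time when Il1rl1 was lower, and the part of mast cells in its values was not tested. Endothelial markers (1 of 8 higher and 2 lower at 3 days, 1 lower at 14 days) had sums of 100.2 to 112.5, 84.4 to 108 and 100.1 to 118. The 5 red blood cell markers were not called in either comparison, with sums of 1222 to 1484, 979 to 2311 and 995 to 2315.

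Genes whose levels followed each member most closely were ranked by the root mean square difference over 14 arrays, after each gene was centred on its own mean, among 14854 named genes. The closest to Il1b was Rgs1, a regulator of G-protein signalling (0.58 on the log2 scale, with changes of 4.39 at 3 days and 3.05 at 14 days), and next came Egr2 (0.59) and Loxl4 (0.62). Twist1 (0.26), Dock10 (0.28) and Gap43 (0.28) were closest to Il33. Among the closest to Il18 were Slfn8 (0.14) and Casp8 (0.16). For Il1r1 they were Gm6548 (0.12), the intermediate filament gene Vim (0.16) and Snx7 (0.17).

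For Il1r2 the closest gene was Chil3, a chitinase-like gene of myeloid cells (0.61, with changes of 6.04 at 3 days and 0.36 at 14 days), before Slfn4 (0.71) and Gm5150 (0.72). Il1rn was followed by Ms4a6b (0.51), Tead4 (0.53) and Adora3 (0.55), and Il1rap by Stx11 (0.27), Dnmt1 (0.28) and Rnu3b1 (0.28). Il1rl1 was closest to Nufip1 (0.16), Foxj3 (0.17) and Mgl2 (0.17). Among the closest to Il18r1 were Prr15 (0.27) and Nkd1 (0.36).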

How the data were processed

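The value table of the series holds 1 linear intensity per probe and array as deposited by the authors, with no scaling between arrays. Scanner output of 10 arrays was made with Agilent Feature Extraction 10.7.3.1, per the file headers. There, probes printed once had identical intensities in the table (tolerance 1e-05). Per the labels' protocols, mRNA was purified on poly-T beads and total RNA was labelled, so which RNA was labelled is not settled. The submitters' processing notes list limma.

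Probes were named through their RefSeq accession and a table of mouse RefSeq genes, since the files used here hold no gene name column. Of 55482 probes 27138 had a symbol. Log2 was taken of the deposited intensity and the 75th percentile of each array subtracted. A probe with several spots counted as above background if over 50% of them were. A single limma fit (version 3.58.1, R 4.3.3, empirical Bayes) covered all 3 groups, after a test on simulated data. The tested probe with the highest mean level stood for a gene, and 23225 dim probes were left out. The number of arrays limits the precision. Replicate numbers were not taken as pairs: correlations of same-numbered deviations were -0.14 to 0.22. Named were all members with each probe, from each pathway list up to 2 rises and 2 falls called at each time, and the 3 closest genes per member, of which some are not reported here. Casp1, Sigirr, Il18rap, Itgam, Dcn, Panx1 at 3 days and the neutrophil, mast cell, T cell and natural killer cell markers were named after their values were seen. The members and lists were chosen with earlier results of these data known. Scaling, background correction, filter, slide, replicate block and single arrays were varied in 26 alternatives per comparison.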

Additional observations from a re-analysis of the deposited data

Results flagged for a closer look

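A single array lay far from the others of its group in 3 of 42 groups of member levels, where chance gives about 1 in 20. Il1a was -3.79 on MI 14 days replicate 5, 2.12 above the next array. The tested Il1rap probe was -5.13 on MI 14 days replicate 2, 1.16 below the next array. The dim Il1rl1 probe of NM_010743 was -2.63 on MI 14 days replicate 3, 3.51 above the next array.

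The change from sham at 14 days differed from that at 3 days for 8 members by limma's test of the difference, which equals the comparison of the times since both share the sham arrays. The difference was -1.46 for Il1b, -0.60 for Il33, -1.10 for Il18, -2.08 for Il1rn, -0.93 for Il1r1, -1.41 for Il1rap, -6.07 for Il1r2 and 0.79 for Il18r1. The values for Il1r2 and Il1rn are fitted against groups below background.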

How the results depend on the processing

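Counts of called members moved in 5 of 36 settings other than leaving out an array and stayed within 1.5 times in the other 31 and in all 42 fits that left out 1 array. With only probes above background on every scanner array, 4 members were tested, and 4, 3 and 3 were called at 3 days, at 14 days and between them. With no scaling 2 were called at 14 days, and with normexp 5 between the times. Normexp was run on the median signal, since the files used here have no mean signal. Of 309 values of single members under those settings 288 stayed on their side of the threshold, 19 lost the call and 2 gained it. Of 378 fits of members without 1 array, 377 stayed on their side and 1 gained the call. Values that were not called could change sign, as Il1rn did at 14 days against sham (-0.15, and 0.03 with normexp).

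Il18bp turned with no scaling (0.10 at 3 days and -0.25 between the times), as did Tab1 between the times (-0.11), and Nlrp1a between the times with the mean of its probes (-0.028). The causes were not tested. No scaling moved the median of all tested probes by 0.41 at 3 days and -0.49 between the times, and median centring by 0.18 and -0.20. With no scaling 11790, 1478 and 10248 probes were called in the same order, against 21040, 10489 and 17945. The slide block gave 5075 at 14 days and 9127 between the times, and normexp 10625 between the times. With the replicate block 8, 5 and 8 members were called, and 20965, 10381 and 17839 probes. Dim probes limit Il1a, Il1rn, Il1rap and Il18r1, and dim sham signal limits the sizes of the Il1b rises.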
